A study of Rattus norvegicus and Homo sapiens with 12 samples.

Results

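The transcripts encoded by mitochondrial DNA were examined in DU145, a human prostate cancer cell line. They comprise every gene whose symbol begins with MT-, which gave 37 of the 60107 genes in the DU145 count table, matched by Ensembl identifier: 13 mRNAs, 2 rRNAs and 22 tRNAs. They were grouped by RNA class, by the strand they are transcribed from and by their order on chromosome M. The rule itself reads gene symbols only. RNA QuantSeq libraries had been prepared from 3 samples of F0, the parental population, and 3 of F2, the MSC-educated population that was recovered after repeated culture in CM of purchased human MSCs. The sample labels give 2 rounds of 72 h in MSC CM for F2 and the series text gives 3, with 48 h of recovery in complete media between rounds. F0 and F2 DU145 cells that expressed luciferase were used in mice in the study, and whether the sequenced cells carried it is not given in the sources used here. The sources also do not say whether the 3 F2 samples were selected separately or drawn from 1 selected population. The p-values below therefore measure the spread between these samples, which may be technical. QuantSeq primes on poly(A) with oligo(dT) and reads 1 fragment of 101 bases near the priming site, from 500 ng of RNA per library.

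Mitochondrial DNA is a small circle that is transcribed from both strands into long polycistronic RNAs. These are cut mostly at the tRNAs that sit between the genes, which releases the rRNAs and mRNAs, and most of the mRNAs then receive a short poly(A) tail. The mRNAs encode core subunits of respiratory complexes I, III and IV and of ATP synthase (complex V), while all other proteins of mitochondria come from nuclear genes. The heavy strand is the template for 12 mRNAs, both rRNAs and 14 tRNAs, and the light strand for MT-ND6 and 8 tRNAs.

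The 3′ ends of the mRNAs are shown because the QuantSeq primer anneals on the poly(A) tail. In mRNAs that carry a tail, it starts at or after these ends. The last 30 bases of each coding gene, 5′ to 3′ in the sense of the mRNA, are listed in genome order with the stop codon, or the part of it that the DNA encodes, in capitals (GENCODE release 29, GRCh38).
MT-ND1: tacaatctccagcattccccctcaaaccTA
MT-ND2: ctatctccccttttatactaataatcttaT
MT-CO1: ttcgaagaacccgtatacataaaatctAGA
MT-CO2: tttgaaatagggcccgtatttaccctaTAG
MT-ATP8: tcgcttcattcattgcccccacaatccTAG
MT-ATP6: gtaagcctctacctgcacgacaacacaTAA
MT-CO3: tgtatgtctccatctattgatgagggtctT
MT-ND3: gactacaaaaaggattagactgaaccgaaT
MT-ND4L: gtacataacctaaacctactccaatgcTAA
MT-ND4: accccgacatcattaccgggttttcctctT
MT-ND5: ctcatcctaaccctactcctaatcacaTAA
MT-ND6: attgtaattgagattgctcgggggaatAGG
MT-CYB: taattgaaaacaaaatactcaaatgggccT
In 5 mRNAs the DNA ends at the first base of the stop codon and in 1, MT-ND1, after 2 bases, so that the tail itself supplies the missing adenines. The other 7 carry a complete stop codon. The mature mRNAs of MT-CO1, MT-CO2, MT-ND5 and MT-ND6 are known to run past the annotated gene end. Reads primed on the tails of MT-CO1, MT-CO2 and MT-ND5 may therefore fall outside the gene. Most but not all of the mRNAs carry a tail, and how reads of MT-ND6 were primed was not tested. The rRNAs carry at most very short tails, and their longest internal runs of A, marked in capitals below, are given because oligo(dT) could also anneal there.
MT-RNR1: cacctgagttgtAAAAAActccagttgaca
MT-RNR2: taaggaaaggttAAAAAAAgtaaaaggaac
The run spans 6 bases in MT-RNR1 and 7 bases in MT-RNR2, compared with 3 to 8 bases for the longest run in the mRNAs. Base composition differed by strand. The 12 mRNAs of the heavy strand hold 26.8% to 38.6% A and 6.3% to 16.2% G, and MT-ND6 holds 19.6% A and 35.6% G.

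Counts assigned to genes lay between 15879480 and 16479239 per library. Epithelial identity was checked with EPCAM (475 to 557 counts per library), KRT8 and KRT18, all of which were detected in all 6 libraries. Of 17 MSC markers, 10 had at most 3 counts in every library. The summed level of the list, almost all of it VIM, ranged from 1363 to 1537 CPM in F0 and from 1425 to 1530 CPM in F2. Of the 5 tested MSC markers, NES was higher in F2 (log2 fold change 0.49, edgeR adjusted p = 0.022) and FN1 was lower (-0.52, edgeR adjusted p = 0.041). Both were named after their values were seen, and the other 3 had an adjusted p of 0.05 or more. Over all tested genes, 9.49% were higher and 8.67% lower. The summed level of 6 epithelial markers was 1025 to 1097 CPM in F0 and 1325 to 1334 CPM in F2, with KRT5 at 0 counts and 4 of the 5 tested genes higher. The fifth, CDH1 (E-cadherin), named after its values were seen, was lower, with 11.9, 15.1 and 15.0 CPM in F0 and 5.82, 5.84 and 5.67 CPM in F2 (log2 fold change -1.27, edgeR adjusted p = 7.6e-07). Other library measures moved with the population. Reads outside annotated genes were 9.60% to 10.0% of uniquely placed reads in F0 and 11.3% to 11.9% in F2, ambiguous reads 1.49% to 1.502% and 1.36% to 1.40%, and reads with several alignments 0.591 to 0.624 and 0.536 to 0.572 per gene count. Whether these shifts had a part in the results below was not tested.

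F2 DU145 cells devoted a larger share of their gene counts to chromosome M than F0 cells, and the increase was unequal between RNA classes. mRNAs took 3.499%, 3.68% and 3.86% of gene counts in F0 replicates 1 to 3 and 7.56%, 7.90% and 7.76% in F2 replicates 1 to 3. All F2 values were above all F0 values. The rRNAs took 2.12%, 2.10% and 2.07% in F0 and 2.60%, 2.65% and 2.62% in F2, again without overlap but with a smaller step. tRNAs took 0.0979%, 0.0805% and 0.0749% in F0 and 0.0689%, 0.0891% and 0.0606% in F2, and these ranges overlapped. The count of the 13 mRNAs over that of the 2 rRNAs was 1.76 ± 0.104 in F0 and 2.95 ± 0.0387 in F2 (SD, n = 3 each). In bulk RNA, more mitochondrial RNA per cell and more cells that are rich in it cannot be told apart.

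**Figure D1:**
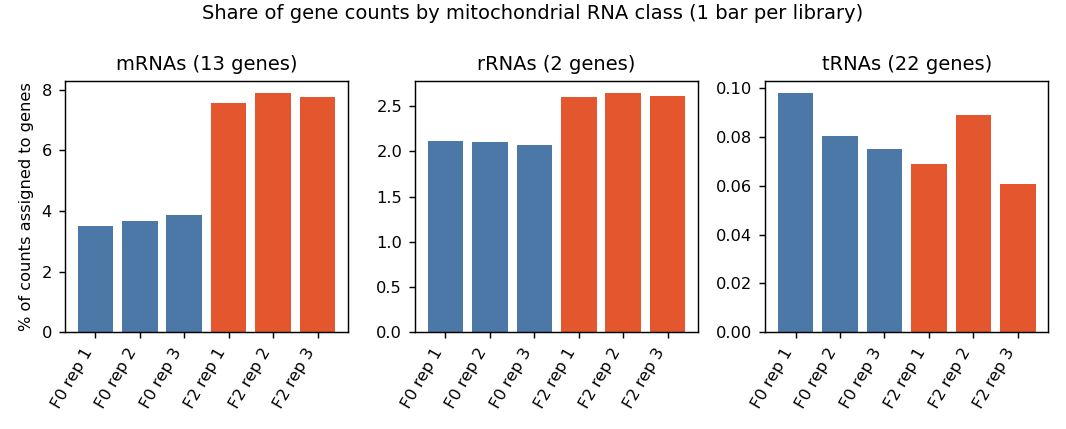
Share of the counts assigned to genes that came from mitochondrial mRNAs, rRNAs and tRNAs, in percent, with 1 bar for each F0 (blue) and F2 (orange) DU145 library. Each panel has its own vertical axis from 0. The F2 bars of the mRNAs lie between 7.56% and 7.90% and those of F0 between 3.499% and 3.86%, while the tRNA bars of F0 and F2 overlap.

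Each gene was then compared between F2 and F0 with edgeR's quasi-likelihood test on TMM-normalized counts, with Benjamini-Hochberg adjustment over the 14316 genes that passed a filter on low counts. All 13 mRNAs and both rRNAs passed this filter, and 14 of the 22 tRNAs did. A gene was called at an adjusted p under 0.05, which 18.2% of all tested genes reached, 9.49% higher and 8.67% lower in F2. That is 2599 genes, 1358 of them higher. Without F0 replicate 2 the number was 1670, and scaling by library size alone gave 3637 genes with 832 higher. Among the 29 tested mitochondrial genes 18 were higher, 1 was lower and 10 were not past the threshold. Every one of the 13 mRNAs was higher in F2, with log2 fold changes from 0.28 to 1.53, standard errors (SE) from 0.039 to 0.072 and adjusted p-values of 4.4e-05 or less. All 3 F2 libraries exceeded all 3 F0 libraries for each mRNA, an order that 16.9% of all tested genes showed. The rise was at least 2-fold for 8 mRNAs, compared with 0.824% of all tested genes. The median log2 fold change of the mRNAs was 1.11, beside -0.0025 over all tested genes. Leaving out any 1 of the 6 libraries kept all 13 mRNAs past the threshold.

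**Figure D2:**
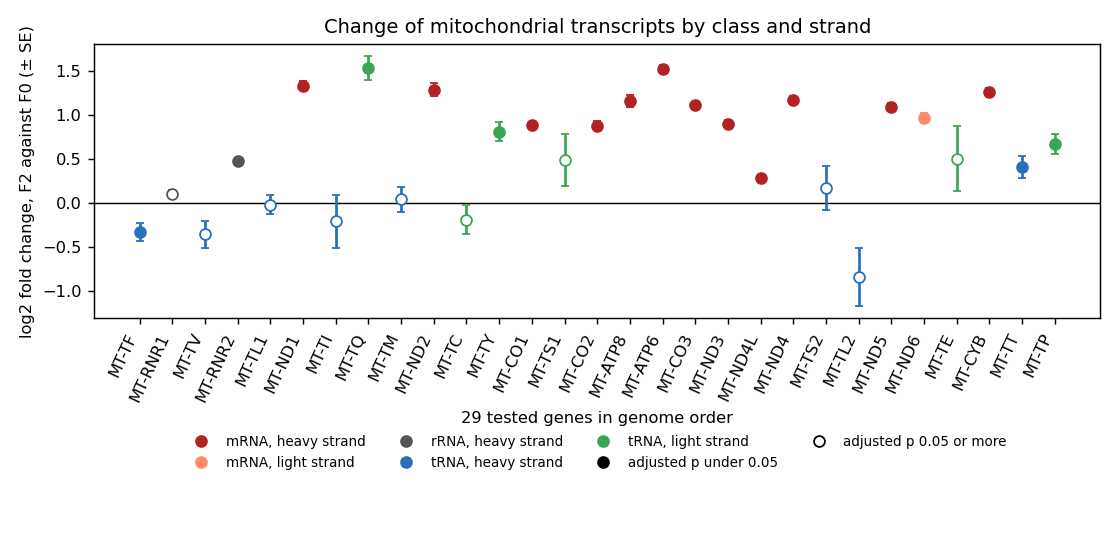
Log2 fold change of F2 against F0 for the 29 tested mitochondrial genes, placed in genome order along the horizontal axis and without distances, with bars for the standard error. Colour gives RNA class and strand, and filled symbols have an adjusted p under 0.05 from edgeR. The mRNAs lie between 0.28 and 1.53, whereas heavy strand tRNAs lie between -0.83 and 0.41.

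Complex V showed the largest summed change. MT-ATP6, which encodes the a subunit of the proton channel of ATP synthase (ENSG00000198899, chromosome M, 8527 to 9207), had 4429, 4784 and 5010 CPM in F0 and 13546, 13269 and 14156 CPM in F2. The populations were well separated, and the log2 fold change was 1.53 (SE 0.046, edgeR adjusted p = 2.0e-14). MT-ATP8, a small subunit of the same membrane domain (8366 to 8572), averaged 889 ± 83.5 CPM in the parental and 1989 ± 209 CPM in the educated cells (SD, 3 libraries of each), with a log2 fold change of 1.16. Summed over both genes, complex V mRNA was 2.78-fold higher in F2. Complex III has a single mitochondrial gene, MT-CYB, which encodes cytochrome b (14747 to 15887). Its levels were 2994, 3051 and 3145 CPM in F0 and 7036, 7793 and 7160 CPM in F2, and its log2 fold change was 1.26 (SE 0.044, edgeR adjusted p = 2.0e-13).

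The 7 subunits of complex I, the NADH dehydrogenase, were summed to 17248 ± 878 CPM before selection (F0) and 37505 ± 1574 CPM after it (F2), a 2.17-fold rise. MT-ND1, which lies next to the quinone-binding site (3307 to 4262), went from 1677, 1782 and 1865 CPM to 4439, 4188 and 4778 CPM (log2 fold change 1.33). MT-ND2, one of the proton-pumping subunits, had a log2 fold change of 1.29 and the largest standard error among the mRNAs (0.072). Its F2 levels were 8220.3, 10289 and 8204 CPM, so replicate 2 stood above the others. The related pump subunits MT-ND4 and MT-ND5 had log2 fold changes of 1.17 and 1.09, and MT-ND3, a small membrane subunit, 0.90. MT-ND4L was the mRNA with the smallest change. Its levels were 1037, 1065 and 1051 CPM in F0 and 1248, 1308 and 1279 CPM in F2, which do not overlap, but the log2 fold change was only 0.28 (SE 0.040, edgeR adjusted p = 4.4e-05).

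Complex IV, cytochrome c oxidase, rose less than complexes I, III and V when its 3 mitochondrial subunits were summed, from 9773 ± 484 to 19473 ± 658 CPM, 1.99-fold. MT-CO1, which carries the heme and copper center that reduces oxygen (5904 to 7445), had 746, 765 and 743 CPM in F0 and 1376, 1402 and 1379 CPM in F2, with a log2 fold change of 0.88. MT-CO2, which accepts electrons from cytochrome c, had the same log2 fold change to 2 decimals (0.88), and MT-CO3 had 1.11. Whether the complexes differed from each other was not tested.

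**Figure D3:**
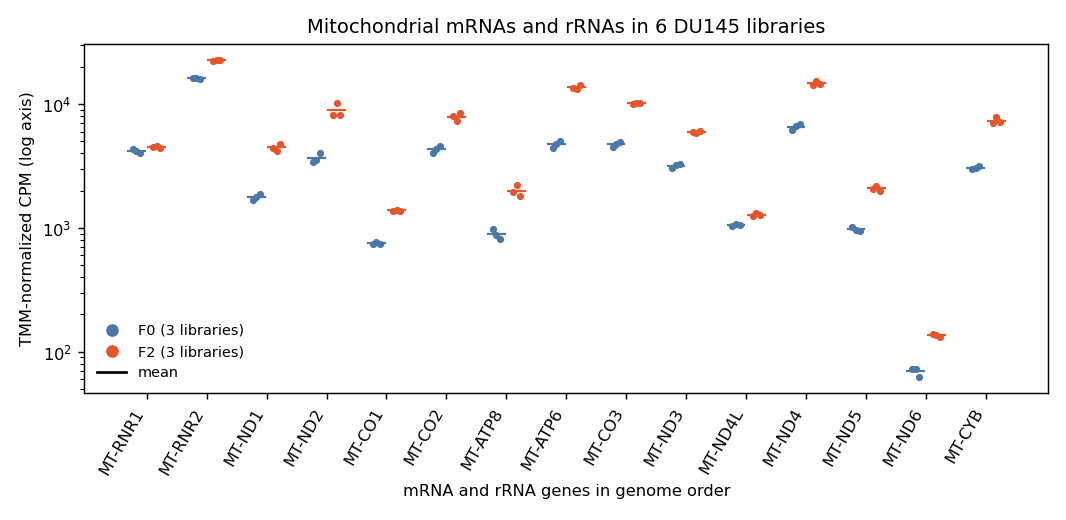
TMM-normalized CPM (log axis) of the 13 mitochondrial mRNAs and 2 rRNAs in genome order, with 1 point per library (F0 blue, F2 orange) and a line at the mean of 3 libraries. For each gene the F2 points lie above the F0 points, by the least for MT-RNR1 and MT-ND4L. Levels of different genes are not comparable as molecule numbers, since priming may differ between them.

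Ordered by log2 fold change, the mRNAs ran MT-ATP6, MT-ND1, MT-ND2, MT-CYB, MT-ND4, MT-ATP8, MT-CO3, MT-ND5, MT-ND6, MT-ND3, MT-CO1, MT-CO2 and MT-ND4L. For 9 of the 12 pairs of neighbours in this order the count ratio overlapped between F0 and F2, so that their order was within the spread between libraries. The 3 steps without overlap were those below MT-ATP6, below MT-CYB and above MT-ND4L. As the order was taken from these same libraries, the direction of each step was set by it, and the steps were not read as a test. Whether the order follows position on the genome was not tested.

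Some reading frames overlap and are carried on 1 shared mRNA, which allowed different parts of 1 RNA to be compared. MT-ND4L and MT-ND4 share 7 bases of DNA and are translated from 1 mRNA, in which MT-ND4L forms the 5′ part. The count of MT-ND4 over that of MT-ND4L was 5.92, 6.18 and 6.57 in F0 and 11.4, 11.7 and 11.4 in F2. The ratios did not overlap and differed by 0.89 on the log2 scale (exact permutation test, two-sided, p = 0.1, the smallest that 3 against 3 allow). MT-ATP8 and MT-ATP6 share 46 bases, and MT-ATP8 is the 5′ part. Here the ratio of MT-ATP6 to MT-ATP8 was 4.53, 5.47 and 6.16 in F0 and 6.997, 5.98 and 7.81 in F2, a log2 difference of 0.37 with overlap between the populations (exact permutation test, p = 0.2). In both pairs, reads that touch the shared bases would be listed as ambiguous under the default rule of HTSeq and counted for neither gene. MT-ATP6 also shares 1 base, the last of its gene, with MT-CO3, where the same rule would apply. The HTSeq setting is not given in the sources used here. The 5′ genes also lie away from the shared poly(A) tail, and how their reads arose was not tested.

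**Figure D4:**
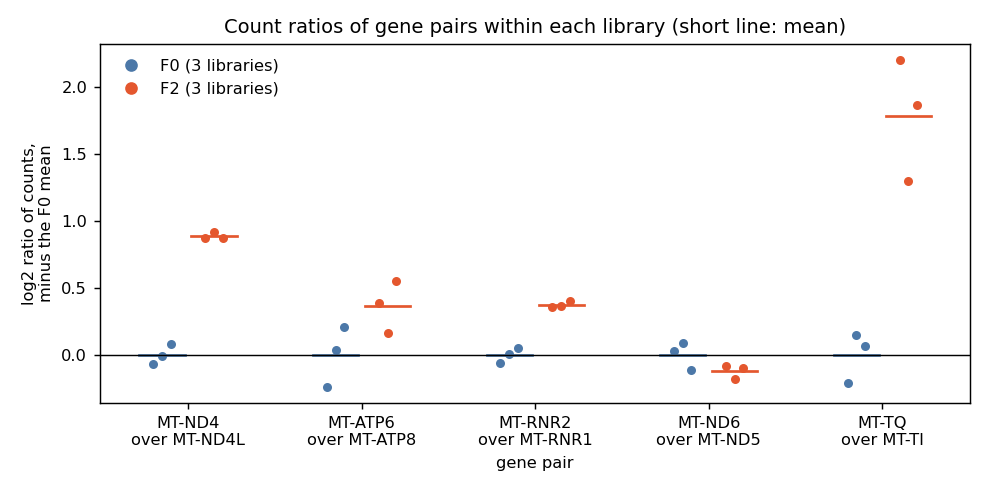
Log2 ratio of the counts of 2 genes within each library, minus the F0 mean of that ratio, for 5 gene pairs, with points for single libraries (F0 blue, F2 orange) and short lines for means of 3. The F2 points of MT-ND4 over MT-ND4L lie 0.89 above F0 on average and those of MT-RNR2 over MT-RNR1 0.37 above. The ratio of MT-ND6 to MT-ND5 overlaps between the populations.

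The 2 rRNAs, which form the RNA core of the mitochondrial ribosome, are transcribed side by side, and only MT-RNR2 passed the threshold. MT-RNR1, the 12S rRNA of the small subunit (648 to 1601), had 4362, 4178 and 3993 CPM in F0 and 4514, 4554 and 4414 CPM in F2. Its F2 values were all higher, but the difference was small, at 0.11 on the log2 scale (SE 0.041), and missed the threshold (edgeR adjusted p = 0.084). Scaling by library size alone gave 0.02 (edgeR adjusted p = 0.81). Without F0 replicate 1 it was 0.14 and past the threshold (edgeR adjusted p = 0.023). MT-RNR2, the 16S rRNA of the large subunit (1671 to 3229), had 16225, 16239 and 16058 CPM in F0 and 22344, 22734 and 22638 CPM in F2. It was higher in F2 by 0.48 on the log2 scale (SE 0.036, edgeR adjusted p = 1.2e-08). The count ratio of MT-RNR2 to MT-RNR1 was 3.88 ± 0.151 in F0 and 5.02 ± 0.0936 in F2 (SD, n = 3 each), without overlap (exact permutation test, p = 0.1). The ratio of MT-ATP6 to MT-RNR1 went from 1.14 ± 0.120 to 3.04 ± 0.151, also without overlap. MT-ATP6 was the mRNA with the largest change and MT-RNR1 the rRNA with the smaller one. Their separation therefore follows from those changes and was not read as a test. Within the counts of chromosome M, MT-RNR1 and MT-RNR2 made up 7.35% and 28.4% in F0 and 4.17% and 20.9% in F2, and MT-ATP6 made up 8.33% and 12.7%.

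The light strand was represented by few counts. Its 9 genes together gave 124 ± 11.5 CPM in F0, against 231 ± 10.1 CPM in F2 (SD over 3 libraries), a 1.86-fold difference. The heavy strand genes together rose 1.89-fold, but the values by class were less alike. Summed mRNA rose 2.24-fold on the heavy strand and 1.95-fold on the light strand. Summed tRNA was 0.86-fold and 1.75-fold, and the rRNAs, both of the heavy strand, rose 1.33-fold. MT-ND6, a membrane subunit of complex I and the sole mRNA of the light strand (14149 to 14673), had 72.9, 72.9 and 62.0 CPM in F0 and 138, 137 and 131 CPM in F2. The groups were separate, and the log2 fold change was 0.97 (SE 0.060, edgeR adjusted p = 8.3e-10). MT-ND5, the neighbour that ends against it on the other strand, rose by 1.09, and the ratio of the 2 genes overlapped between F0 and F2 (exact permutation test, p = 0.3). How the authors' counting treated strand is not given in the sources used here, so reads of MT-ND6 and of RNA antisense to it cannot be told apart by these counts alone. Whether MT-ND6 reads were primed on a poly(A) tail was also not tested, so its level may not compare with that of the other mRNAs.

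tRNAs deliver amino acids to the mitochondrial ribosome and, being short and without a poly(A) tail when mature, are poorly captured by QuantSeq. The 8 tRNA genes that were not tested (MT-TW, MT-TA, MT-TN, MT-TD, MT-TK, MT-TG, MT-TR and MT-TH) had between 0 and 13 counts per library. MT-TK had 0 counts in all 6 libraries, which allows up to 3 counts per library. All tRNA genes are 59 to 75 bases long and reads have 101 bases, so no full-length read fits inside one. Whether their counts, and the changes below, reflect the tRNAs themselves or RNA that runs past them was not tested. The 14 tested tRNAs had a median log2 fold change of 0.11. Of them 4 were higher and 1 was lower in F2, beside 9.49% and 8.67% of all tested genes, and 9 were not called. Without F0 replicate 2 it was 3 higher and 0 lower, without F2 replicate 2 and also under library size alone 3 higher and 3 lower, and with DESeq2 4 higher and 0 lower.

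The tested tRNAs of the 2 strands had different ranges. The 6 light strand tRNAs had a median log2 fold change of 0.59 (-0.19 to 1.53), and 3 were higher in F2. The 8 heavy strand tRNAs had a median of -0.11 (-0.83 to 0.41), with 1 higher and 1 lower. Over all tested genes 9.49% were higher and 8.67% lower, and 1 of 8 each way is near those shares. Summed counts of light over heavy strand tRNAs were 0.0716 ± 0.0033 in F0 and 0.148 ± 0.0195 in F2 (SD, n = 3 each). These light strand genes lie opposite heavy strand RNA of far higher level, so with the strand setting unknown their counts, and this contrast, cannot be told apart from reads antisense to them. The members of each strand were few, and no test of the difference between strands was made.

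Among light strand tRNAs, MT-TQ, the tRNA for glutamine (4329 to 4400), changed most. It had 107, 108 and 167 counts in F0 and 345, 326 and 354 in F2, or 6.32, 6.54 and 9.88 CPM against 22.1, 21.2 and 22.6 CPM. The groups were far apart, and the log2 fold change was 1.53 (SE 0.13, edgeR adjusted p = 1.0e-07). MT-TI, the isoleucine tRNA on the other strand, overlaps the 3′ end of MT-TQ by 3 bases and lies between it and MT-ND1. It had 22 to 36 counts in F0 and 17 to 30 in F2. The count ratio of MT-TQ to MT-TI went from 4.46 ± 0.566 to 15.8 ± 4.72. As MT-TQ was the tested tRNA with the largest rise, this ratio restates that rise and was not read as a test. MT-TY, for tyrosine (5826 to 5891), had 29.996, 23.1 and 21.5 CPM in F0 and 41.5, 50.4 and 39.1 CPM in F2, with a log2 fold change of 0.81 (SE 0.11, edgeR adjusted p = 2.3e-05). MT-TP, for proline (15956 to 16023), rose by 0.67 (edgeR adjusted p = 3.7e-04). MT-TC, for cysteine, shares 1 base with MT-TY and stood at -0.19 on the log2 scale (edgeR adjusted p = 0.48). MT-TS1 and MT-TE, for serine and glutamate, had 0.49 and 0.51 with standard errors of 0.29 and 0.37, and neither was past the threshold.

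On the heavy strand, the tRNAs that flank the rRNAs had the most counts. MT-TF, for phenylalanine and the first gene of the strand (577 to 647), had 609, 495 and 460 CPM in F0 and 389, 515 and 343 CPM in F2. F2 replicate 2 lay within the F0 range. The log2 fold change was -0.33 (SE 0.11, edgeR adjusted p = 0.037), and it was called in only 2 of 6 fits with a library omitted. With DESeq2 its adjusted p was 0.37. MT-TV, for valine, had -0.35 (adjusted p = 0.12), and without F2 replicate 2 it was -0.59 and past the threshold (edgeR adjusted p = 0.0034). MT-TL1, for leucine, was at -0.02, with 166 to 220 CPM in F0 and 152 to 234 CPM in F2. MT-TT, the threonine tRNA that follows MT-CYB, had 12.6, 12.2 and 11.3 CPM in F0 and 14.3, 19.9 and 14.03 CPM in F2. It rose by 0.41 (SE 0.13, edgeR adjusted p = 0.027), a call that 3 of the 6 fits without 1 library kept, and without F2 replicate 2 it was 0.24 (adjusted p = 0.17). MT-TL2 had 22 to 34 counts in F0 and 10 to 19 in F2, without overlap, and a log2 fold change of -0.83 that missed the threshold (edgeR adjusted p = 0.090). MT-TM, MT-TI and MT-TS2 had log2 fold changes of 0.04, -0.21 and 0.17, all within their standard errors.

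**Figure D5:**
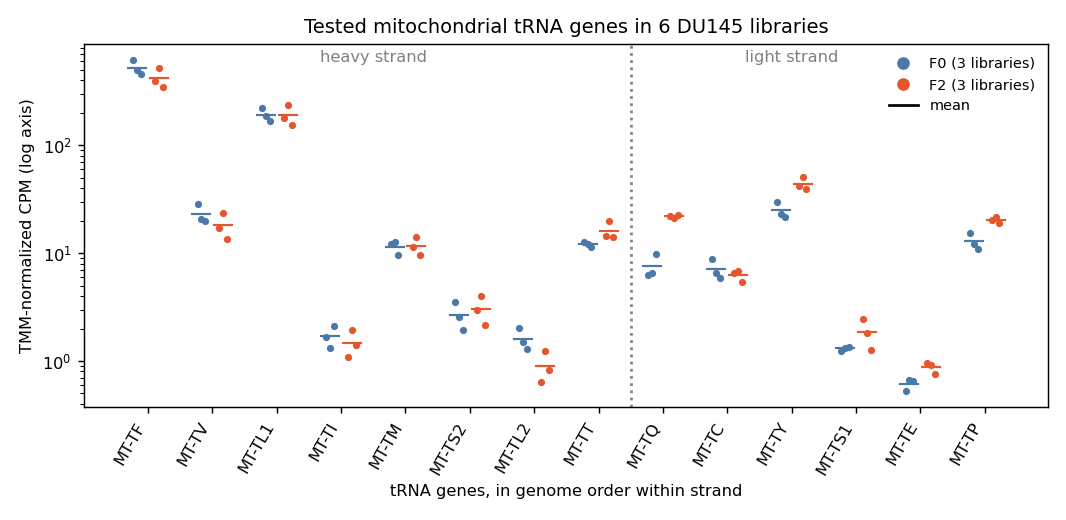
TMM-normalized CPM (log axis) of the 14 tested tRNA genes, those of the heavy strand left of the dotted line and those of the light strand right of it, with 1 point per library (F0 blue, F2 orange) and lines at means of 3 libraries. MT-TQ shows the widest gap, from 6.32 to 9.88 CPM in F0 against 21.2 to 22.6 CPM in F2. Most heavy strand tRNAs overlap between the populations.

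For the tRNAs, F0 replicate 1 had the highest CPM of its population for 9 of the 14 tested tRNAs and F2 replicate 2 for 11 of 14. For the mRNAs, F0 replicate 3 was the highest of its population for 8 of 13 and F2 replicate 2 for 7 of 13. The shares over all tested genes are not given here, so these counts were not read as particular to the tRNAs. When F0 replicate 1 and F2 replicate 2 were both left out, an alternative chosen after the values were seen, 5 tRNAs were past the threshold (3 higher and 2 lower). All 13 mRNAs stayed higher in F2, and their median change was 1.09 on the log2 scale.

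Nuclear DNA holds old copies of mitochondrial genes, and their reads can be confused with those of the genes themselves. A cluster on chromosome 1 copies 7 of the mRNA genes at 97.6% to 99.2% identity over the aligned bases. Windows of 101 bases, the length of a read, that recur without a mismatch in an annotated copy made up 27.5% of MT-CO1, 25.8% of MT-ND2, 11.4% of MT-ATP6, 10.8% of MT-ND1, 4.09% of MT-CO3 and 2.06% of MT-CO2. MT-ATP8, the other 6 mRNAs and both rRNAs had no such window. Reads from shared windows align to several places and are missing from the gene counts. Log2 fold changes of mRNAs with such windows (0.88 to 1.53) and of mRNAs without (0.28 to 1.26) overlapped.

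Of 403 nuclear copies in the table, 12 were tested and 7 were higher in F2, beside 9.49% of all tested genes. None was lower past the threshold (edgeR, also none at an unadjusted p under 0.05), beside 8.67% of all tested genes. The median log2 fold change of the tested copies was 0.91. MTATP6P1 (chromosome 1, 633696 to 634376), which differs from MT-ATP6 at 10 of 681 aligned bases, held most of their counts. It had 2144, 2035 and 2145 counts in F0 and 6951, 6228 and 7281 in F2, well apart, with a log2 fold change of 1.80. Its count over that of MT-ATP6 was 0.0266 ± 0.0018 in F0 and 0.0320 ± 0.0013 in F2 (SD, n = 3 each), without overlap (exact permutation test, p = 0.1). Copies of MT-RNR2 were also among the tested ones, with log2 fold changes of 0.64 for MTRNR2L12 and 1.05 for MTRNR2L3, which were past the threshold, and of 0.43 for MTRNR2L1 and 0.89 for MTRNR2L7, which were not. Whether counts of the copies come from the nucleus or from misplaced mitochondrial reads was not tested. All copies together amounted to 0.438% of the counts of the mitochondrial genes, and adding the chromosome 1 copies to their sources left the median log2 fold change of the mRNAs at 1.11.

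Complexes I to V are completed by subunits from nuclear genes. Of 78 nuclear subunits of complexes I to V, all tested, 4 were higher and 13 were lower in F2, none at 2-fold. These are 21.8% called, 5.13% higher and 16.7% lower, beside 18.2%, 9.49% and 8.67% of all tested genes. Their median log2 fold change was -0.05, against 1.11 for the mitochondrial mRNAs and -0.0025 for all tested genes. The largest rises were those of SDHA (0.37), a complex II subunit, NDUFA1 (0.22) and ATP5MG (0.18), and the largest falls those of NDUFS1 (-0.28), NDUFC1 (-0.26) and NDUFB11 (-0.25), all of complex I. Of 35 listed factors that copy, transcribe, process or degrade mitochondrial RNA and DNA, 34 were found and tested, with a median of -0.01. Among them 4 were higher and 2 were lower (11.8% and 5.88%), and 28 were not past the threshold. The 17.6% called were near the 18.2% of all tested genes, so the list as a whole did not stand out. Named here are those with the largest changes past the threshold. SLIRP, which binds and stabilizes mitochondrial mRNAs, rose by 0.25 (edgeR adjusted p = 7.6e-04), and the single-strand DNA-binding protein gene SSBP1 by 0.20. MGME1, a nuclease of mitochondrial DNA replication, rose by 0.33. TFAM, the factor that packs mitochondrial DNA and starts its transcription, was lower by 0.20 on the log2 scale, with a log2 fold change of -0.20 (edgeR adjusted p = 0.027). REXO2, an exonuclease that clears short RNAs in mitochondria, had -0.22. Replication histone genes were listed as a comparison for RNAs that mostly lack a poly(A) tail. Of 14 tested, none was higher and 1 was lower (7.14%, beside 8.67% of all tested genes), with a median of -0.15. Whether the histone counts came from RNA with or without a tail was not tested.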

How the data were processed

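Raw read counts per gene were deposited by the authors for 3 F0 and 3 F2 DU145 samples. The submitters' processing notes name STAR 2.5.2a, HTSeq 0.6.0 and GRCh38. The annotation release and the strand setting are not given in the sources used here. Lines that name no gene and 92 spike-in RNAs with 0 counts stayed out of library sizes. The count table of PAIII was not used here.

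Columns were matched to samples by line, population and replicate number in the labels. With R 4.3.3, edgeR 4.0.16 was run on the 6 libraries (filterByExpr with a minimum count of 10 and total of 15, TMM scaling, quasi-likelihood F-test, two-sided, no covariate, Benjamini-Hochberg threshold 0.05), after a test on simulated data. CPM values are TMM-normalized. Ratios within libraries were tested, where a p-value is given, by exact permutation over samples. Positions (GRCh38) and sequences came from GENCODE release 29. Symbols came from a list of current gene names, with release 29 used where that list had none. A symbol was found for 56531 of 60107 identifiers. No pair of replicates was close enough to be 1 library deposited again (chi-square of 2.19 or more per degree of freedom). Alternatives were median-ratio factors, library size alone, scaling from nuclear genes, other filters, DESeq2 1.42.0, a replicate block, each library left out, and copies added to their sources.

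All 37 members are accounted for. Other genes were named by rule: tested nuclear copies, and the 3 largest rises and falls past the threshold in lists of nuclear respiratory subunits and of mitochondrial RNA and DNA factors. The members, lists and tests were chosen with earlier results of these data known. Counts of reads without molecular identifiers limit intervals and floors to counting error.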

Additional observations from a re-analysis of the deposited data

Results flagged for a closer look

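One measure outside the gene counts was higher in F2 than in the F0 controls. Reads placed outside annotated genes made up 11.6% of uniquely placed reads in F2 DU145 and 9.81% in F0 (means of 3 libraries, no overlap, two-sided exact permutation p = 0.1, which is the lowest possible with 3 libraries a side). How many of them fell on chromosome M between its genes is not shown by the counts. No group had enough libraries for a test of single outlying values.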

How the results depend on the processing

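All 13 mRNAs stayed higher and past the threshold under all 15 alternatives, and between 8 and 9 of them at 2-fold. Their median log2 fold change of 1.11 lay between 1.02 and 1.13, and it moved by more than the spread between libraries only under library size alone (1.02), a setting that shifts the median of all tested genes to -0.09. Without 1 library it ranged from 1.08 to 1.13, and the rise in the share of gene counts from chromosome M, 4.57 percentage points, from 4.47 to 4.67. The number of genes past the threshold over the whole table ranged from 1670 (without F0 replicate 2) to 2621 when 1 library was left out, was 2599 with all 6 and 3172 without F0 replicate 1 and F2 replicate 2. The number of tRNAs past the threshold, 5 with all libraries, ranged from 3 to 6. Leaving out 1 library took MT-RNR1 to between 0.073 and 0.14. Under library size alone MT-RNR1 was 0.016 (adjusted p = 0.81 from edgeR). It was past the threshold with no filter beyond 1 count (0.11, adjusted p = 0.032 from edgeR) and without F0 replicate 1 and F2 replicate 2 together (0.13). Directions turned only for tRNAs that were not past the threshold. MT-TM was -0.046 under library size alone and -0.06 without F0 replicate 1 and F2 replicate 2, an alternative added after the data were seen. When 1 library was left out, MT-TM ranged from -0.11 to 0.17, MT-TL1 from -0.20 to 0.12, MT-TC from -0.31 to 0.0021 and MT-TS2 from -0.067 to 0.43.

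Samples with the same replicate number did not deviate together from their population means (correlations of 0.036, -0.015 and 0.045 over 14316 genes), so the number was not taken to pair them. With a replicate block, 2867 genes and 6 tRNAs were past the threshold, the added tRNA being MT-TV (-0.36, adjusted p = 0.033 from edgeR), and the median of the mRNAs was 1.11. Weak counts limit the tRNAs, of which 8 could not be tested.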
